A study of Mus musculus with 28 samples.

Results

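The 36 genes described here form the glycolysis and hypoxia response module of tumour-infiltrating CD8+ T cells in mice. They were chosen by name for their roles: 4 transporters of glucose and lactate, 17 glycolytic enzymes, 4 regulators of glycolytic flux and 11 genes of the hypoxia response. All 36 were found in each of the 3 count tables, which list 21614, 20603 and 27933 genes. Symbols are spelled as in the bulk tables, so Pkm2 stands for pyruvate kinase M and Ero1l for Ero1a.

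The T cells came from wild type C57BL/6 mice implanted with MC38-OVA, colon carcinoma cells engineered to make the model antigen ovalbumin. In a first bulk RNA-seq experiment PD-1-negative CD8+ cells were sorted as effector-like (CD62L-Slamf7hiCX3CR1+, n = 3 libraries), memory-like (CD62L-Slamf7hiCX3CR1-, n = 5) or naive-like (CD62LhiSlamf7-CX3CR1-, n = 6), with no antibody treatment named. In a second one, cells positive for both Tim-3 and PD-1 (DP) or negative for both (DN) were taken on day 12 after implantation from mice given anti-PD-1 with anti-Tim-3 (blockade) or isotype antibodies, with 3 libraries in each of the groups DP blockade, DP isotype, DN blockade and DN isotype. DN cells of each treatment were also profiled as 1 droplet single-cell library. Each bulk library was made from a lysate of about 2000 cells, and nothing in the labels says that libraries of 1 group came from separate animals, so p-values measure the spread between these libraries. The library names of the effector-like group show that 2 of them carry 3 sample numbers each, and those of the naive-like group carry a different date from the rest, which cannot be told apart from the group itself.

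Glycolysis splits glucose into pyruvate, and lactate dehydrogenase turns pyruvate into lactate, which leaves the cell through monocarboxylate transporters. T cells raise this pathway when activated, and use it less at rest. HIF-1α, the product of Hif1a, accumulates when oxygen is low or when the antigen receptor signals, and binds the core motif RCGTG near many glycolytic genes and near genes for oxygen sensing, mitophagy and collagen folding.

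The core motif was searched as ACGTG or GCGTG on both strands, in the 250 bases upstream of the annotated gene start, in RefSeq promoters of mouse build GRCm38.p6. Overlapping matches were each counted, so the palindrome CACGTG counts as 2. Of the 36 members 34 were in the promoter table, Slc2a3 and Bnip3l being the others. Where a gene has several listed promoters, the one with most matches was taken. At least 1 match was then found for 31 of the 34 members (91.2%), against 60.7% of the 9412 genes tested here that the table holds, counted the same way. With the first listed promoter alone it was 27 of the 34 (79.4%), against 56.3% of those genes. Counted by promoter, 38.6% of all 32851 held a match. No listed promoter of Gpi1, Tpi1 or Mif held one, and Hk1, Aldoa, Pkm2 and Vegfa had none in the first. The 6 promoters below belong to members that the comparisons turn on and that differ in their number of matches, which are in capitals. They are on chr7:46845554-46845803 (Ldha, plus strand, 5 matches, 1 of 2 listed promoters), chrX:106186850-106187099 (Pgk1, plus strand, 2 matches), chr11:120948817-120949066 (Slc16a3, plus strand, 2 matches), chr8:45999851-46000100 (Ankrd37, minus strand, 4 matches), chr6:142507958-142508207 (Ldhb, minus strand, 1 match) and chr6:124814159-124814408 (Tpi1, minus strand, 0 matches). A match is a string of letters and was not tested as a binding site.
Ldha: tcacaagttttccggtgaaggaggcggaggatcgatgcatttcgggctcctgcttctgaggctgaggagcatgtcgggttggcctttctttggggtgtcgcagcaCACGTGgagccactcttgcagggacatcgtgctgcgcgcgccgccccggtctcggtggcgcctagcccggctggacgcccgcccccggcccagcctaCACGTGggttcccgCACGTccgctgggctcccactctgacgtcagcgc
Pgk1: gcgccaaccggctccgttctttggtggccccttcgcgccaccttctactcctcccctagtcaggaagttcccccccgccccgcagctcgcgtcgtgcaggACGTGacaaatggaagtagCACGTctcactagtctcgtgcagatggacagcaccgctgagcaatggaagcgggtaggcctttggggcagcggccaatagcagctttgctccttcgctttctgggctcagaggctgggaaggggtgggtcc
Slc16a3: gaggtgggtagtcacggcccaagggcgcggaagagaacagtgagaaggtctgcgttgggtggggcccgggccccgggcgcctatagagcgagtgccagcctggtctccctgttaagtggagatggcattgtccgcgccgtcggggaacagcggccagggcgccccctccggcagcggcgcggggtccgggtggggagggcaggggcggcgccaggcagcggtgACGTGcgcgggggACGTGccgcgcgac
Ankrd37: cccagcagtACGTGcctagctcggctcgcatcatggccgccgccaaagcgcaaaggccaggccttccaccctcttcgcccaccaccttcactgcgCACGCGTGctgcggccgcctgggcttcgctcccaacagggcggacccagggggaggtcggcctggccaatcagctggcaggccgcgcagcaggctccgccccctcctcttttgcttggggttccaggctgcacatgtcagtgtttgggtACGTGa
Ldhb: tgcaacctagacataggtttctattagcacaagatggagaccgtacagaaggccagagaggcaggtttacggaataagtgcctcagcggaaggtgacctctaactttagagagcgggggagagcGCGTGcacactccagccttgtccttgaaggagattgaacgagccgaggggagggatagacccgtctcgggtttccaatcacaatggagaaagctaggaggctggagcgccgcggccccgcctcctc
Tpi1: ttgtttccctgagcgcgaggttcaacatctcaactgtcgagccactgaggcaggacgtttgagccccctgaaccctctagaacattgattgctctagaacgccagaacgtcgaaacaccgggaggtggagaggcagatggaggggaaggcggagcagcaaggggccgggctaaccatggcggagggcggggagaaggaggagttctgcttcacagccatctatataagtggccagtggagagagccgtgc

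Bulk libraries held between 5027112 and 13579262 counts. Core T cell markers summed to 3028 CPM (counts scaled to a common library size and by TMM, a correction for differences in RNA composition) in the lowest library, so T cell RNA was present in every one. Markers of tumour and stroma, such as keratins 8 and 18, summed to 324 to 624 CPM in the DP libraries and 202 to 1586 CPM in the DN libraries. In the PD-1-negative subsets they summed to 838, 540.2 and 30.03 CPM in effector-like libraries 1, 2 and 3 and to 50.9 to 129 CPM in memory-like libraries. Naive-like libraries held 15.2 to 43.1 CPM, apart from number 6 with 536 CPM. Cycling genes summed to 2780 to 3018 CPM in DP and 490.5 to 1130 CPM in DN libraries. In bulk libraries fewer cells of a type and less RNA per cell cannot be told apart.

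Levels can be set between genes only per transcript length, which the authors' normalised signal allows. On that scale Gapdh, the enzyme that makes the first reducing equivalent of the pathway, led in DP isotype cells with a mean signal of 4570. It was followed by Ldha with 1437, Aldoa with 1170, Eno1 with 1133 and Pkm2 with 981. Gapdh also led in naive-like cells, where its mean signal was 1463. Mif, a cytokine gene induced by hypoxia, had the highest mean signal of the 11 hypoxia genes in DP isotype cells, 749. At the low end in DP isotype cells stood Ldhb with a mean signal of 2.81, Pfkfb4 with 1.27 and Vegfa, the angiogenic growth factor, with 0.33. Gapdh, Ldha, Eno1, Mif and several other members have near-identical processed copies in the mouse genome, so their counts depend on how reads were shared out.

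DP cells carried more RNA of nearly the whole glycolytic pathway than DN cells under isotype. Of the 36 members, 21 were called higher and 2 lower in DP isotype against DN isotype cells (edgeR's quasi-likelihood test, Benjamini-Hochberg adjusted p under 0.05), while 15.0% of all 12710 genes tested were higher and 14.8% lower. By group, 14 of 17 enzymes, 2 of 4 transporters, 1 of 4 regulators and 4 of 11 hypoxia genes were higher. The median log2 fold change was 0.942 over the enzymes, 1.20 over the transporters, -0.0695 over the regulators and 0.713 over the hypoxia genes, against 0.00257 over all genes tested. Calls were most frequent among the enzymes. Positive values were found for 16 of 17 enzymes, 4 of 4 transporters, 2 of 4 regulators and 10 of 11 hypoxia genes. Other gene lists moved with the same groups. All 16 cycling genes were called higher (median 1.88). Of 18 myeloid markers 6 were higher and 3 lower (median 1.96), with sums of 341 to 377 CPM in DP isotype and 374 to 536 CPM in DN isotype libraries. Of 10 markers of plasmacytoid dendritic cells 0 were higher and 9 lower (median -6.92), with sums of 603 to 644 CPM in DP isotype and 2303 to 3471 CPM in DN isotype libraries. The part of these lists in the members' differences was not tested.

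Of the transporters, Slc2a3 and Slc16a3 rose. Slc2a3, which encodes the high-affinity glucose carrier GLUT3, stood at 333, 266 and 263 CPM in DP isotype and 65.8, 77.7 and 61.4 CPM in DN isotype libraries. The groups lay far apart, with a log2 fold change of 2.07 ± 0.18 (SE; adjusted p = 4.48e-06). Slc16a3, the lactate exporter MCT4, had 101, 93.7 and 80.1 CPM in DP isotype and 22.7, 9.002 and 43.2 CPM in DN isotype libraries, a log2 fold change of 1.87 ± 0.39 (SE; adjusted p = 0.00292). Its DN libraries spread widely but all stayed below the DP ones. Slc2a1 (GLUT1) gave 105, 117 and 66.98 CPM in DP isotype and 75.2, 38.5 and 86.1 CPM in DN isotype libraries. Those groups overlapped, and neither Slc2a1 (log2 fold change 0.53 ± 0.35, adjusted p = 0.293) nor the lactate carrier gene Slc16a1 (0.05 ± 0.28, adjusted p = 0.913) passed.

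**Figure D1:**
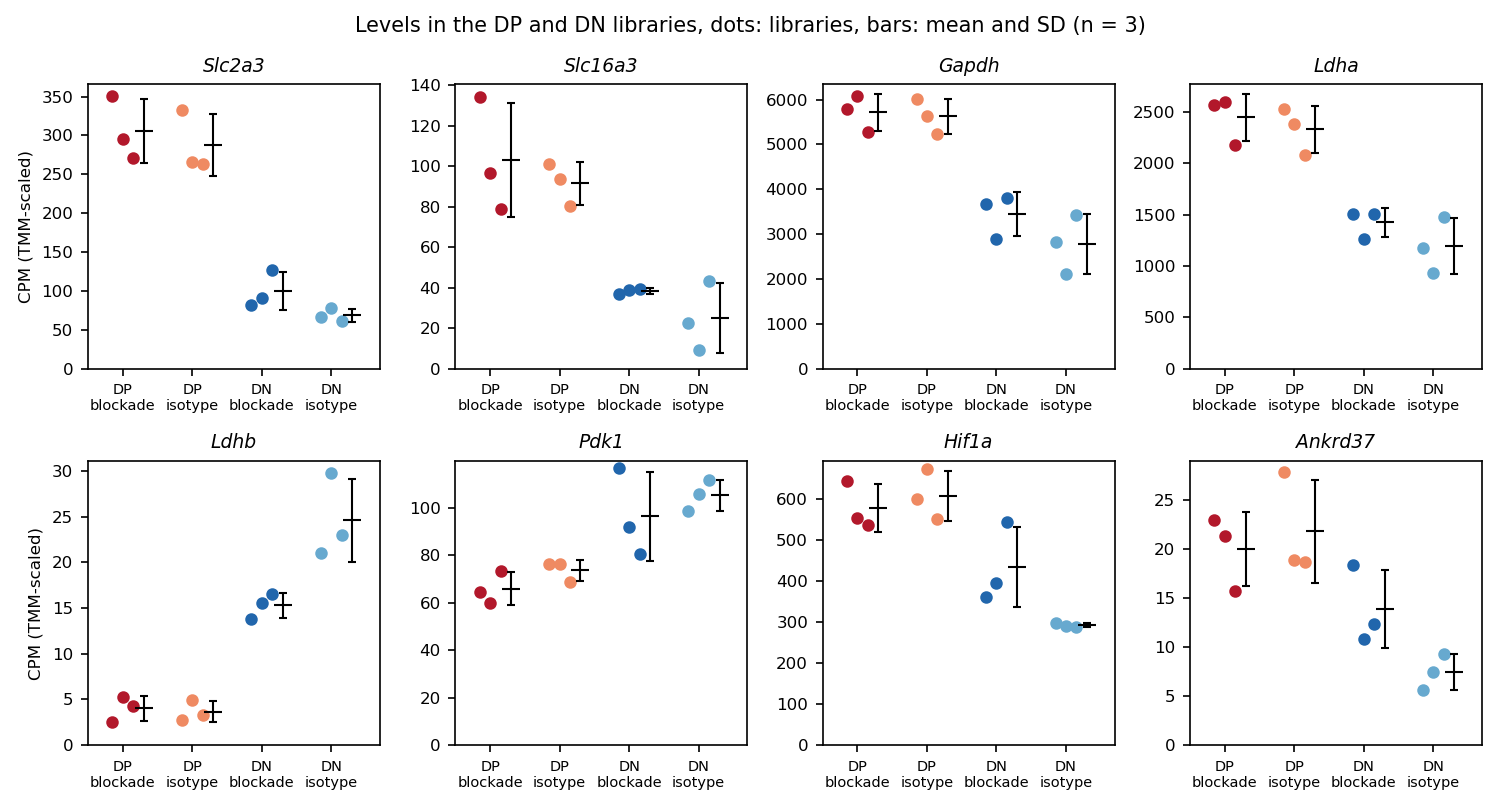
TMM-scaled CPM of 8 members (vertical axes) in the 3 libraries (dots) of DP blockade, DP isotype, DN blockade and DN isotype cells, with the mean and SD as bars. Slc2a3, Slc16a3, Gapdh and Ldha lie higher in all DP than in all DN libraries, Ldhb and Pdk1 lower, and Hif1a of 1 DN blockade library reaches the DP range.

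Along the enzyme chain the rise ran from hexokinase to lactate dehydrogenase A. Hk1, the housekeeping hexokinase, had 136, 111 and 126 CPM in DP isotype and 88.4, 77.1 and 81.5 CPM in DN isotype libraries (log2 fold change 0.60 ± 0.10, adjusted p = 0.000715). Hk2, the inducible hexokinase, had 66.0, 75.8 and 40.5 CPM in DP isotype and 27.8, 6.73 and 34.4 CPM in DN isotype libraries (1.40 ± 0.46, adjusted p = 0.0375). Both genes separated the groups, Hk2 with the wider spread. Of the phosphofructokinase genes, which encode the committed step, Pfkp (0.94 ± 0.11) and Pfkl (0.66 ± 0.20) rose and Pfkm did not pass (0.34 ± 0.28, adjusted p = 0.391). Pfkp stood at 405, 407 and 429 CPM in DP isotype and 218, 222 and 206 CPM in DN isotype libraries, so the spread within each group was small beside the gap.

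The middle and lower steps moved by similar amounts. Aldoa, the main aldolase, had 1935, 1687 and 1687 CPM in DP isotype and 829.8, 651 and 969 CPM in DN isotype libraries (log2 fold change 1.12 ± 0.14, adjusted p = 8.92e-05). Gapdh had 6011, 5636 and 5231 CPM in DP isotype and 2814, 2099 and 3420 CPM in DN isotype libraries (1.02 ± 0.15, adjusted p = 0.000359). Pgk1, which makes the first ATP of the pathway, had 1110, 1062 and 834 CPM in DP isotype and 429, 263 and 652 CPM in DN isotype libraries (1.16 ± 0.26, adjusted p = 0.00459). In all 3 genes the libraries of the groups did not overlap, and DN isotype library 2 was the lowest. Tpi1 (1.25 ± 0.27), Eno1 (1.11 ± 0.23), Pkm2 (0.95 ± 0.21), Eno3 (0.92 ± 0.27), Aldoc (0.81 ± 0.26) and Gpi1 (0.56 ± 0.11) also rose. Pgam1, phosphoglycerate mutase, had a log2 fold change of 0.78 ± 0.28 (adjusted p = 0.0502), and passed without DN isotype 3 (0.00534) and with DESeq2 (0.0133).

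The lactate dehydrogenase subunits moved in opposite directions. Ldha, whose subunit favours lactate formation, had 2533, 2387 and 2079 CPM in DP isotype and 1171, 933 and 1482 CPM in DN isotype libraries (log2 fold change 0.96 ± 0.15, adjusted p = 0.000415). Ldhb, whose subunit favours pyruvate formation, had 2.69, 4.93 and 3.26 CPM in DP isotype and 21, 29.7 and 23.01 CPM in DN isotype libraries (-2.76 ± 0.29, adjusted p = 2.58e-05). Ldhb fell in every DP library below every DN library. The log2 ratio of Ldha to Ldhb counts averaged 9.35 ± 0.48 in DP isotype and 5.59 ± 0.55 in DN isotype libraries (SD, n = 3 each). The log2 ratio of Slc2a3 to Slc2a1 counts averaged 1.61 ± 0.40 in DP isotype and 0.11 ± 0.79 in DN isotype libraries, and that of Slc16a3 to Slc16a1 averaged 0.66 ± 0.22 in DP isotype and -1.36 ± 0.62 in DN isotype libraries (SD, n = 3 each). These ratios compare libraries, since the genes of a pair differ in length.

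Of the regulators, Pdk1, a kinase that inhibits pyruvate dehydrogenase and a known HIF target, fell while most enzymes rose. It had 76.3, 76.1 and 68.7 CPM in DP isotype and 98.5, 106 and 112 CPM in DN isotype libraries, a log2 fold change of -0.51 ± 0.13 (adjusted p = 0.0109). The groups were narrow and did not overlap. Pfkfb3, which makes the allosteric activator of phosphofructokinase, rose (0.64 ± 0.22, adjusted p = 0.0456). Pdk3 (0.38 ± 0.19, adjusted p = 0.157) and Pfkfb4 (-1.16 ± 0.45, adjusted p = 0.0675) did not pass.

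Of the hypoxia genes, Hif1a itself and 3 others rose. Hif1a had 599, 673 and 551 CPM in DP isotype and 297, 291 and 288 CPM in DN isotype libraries (log2 fold change 1.06 ± 0.14, adjusted p = 0.000137). Ankrd37, an ankyrin repeat gene known as a HIF target, had 27.9, 18.9 and 18.7 CPM in DP isotype and 5.62, 7.48 and 9.32 CPM in DN isotype libraries (1.54 ± 0.27, adjusted p = 0.000882). Neither gene's groups overlapped. Mif (0.63 ± 0.20, adjusted p = 0.0343) and Ddit4, an inhibitor of mTORC1 signalling (0.71 ± 0.24, adjusted p = 0.0373), also rose. The mitophagy receptor genes Bnip3 (1.01 ± 0.46, adjusted p = 0.123) and Bnip3l (-0.03 ± 0.10, adjusted p = 0.853) did not pass. Nor did the prolyl hydroxylase genes Egln1 (0.35 ± 0.29) and Egln3 (0.55 ± 0.54), which encode enzymes that mark HIF-1α for decay, the collagen hydroxylase gene P4ha1 (0.50 ± 0.26), the oxidative folding gene Ero1l (0.89 ± 0.44) or Vegfa (0.75 ± 0.76).

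**Figure D2:**
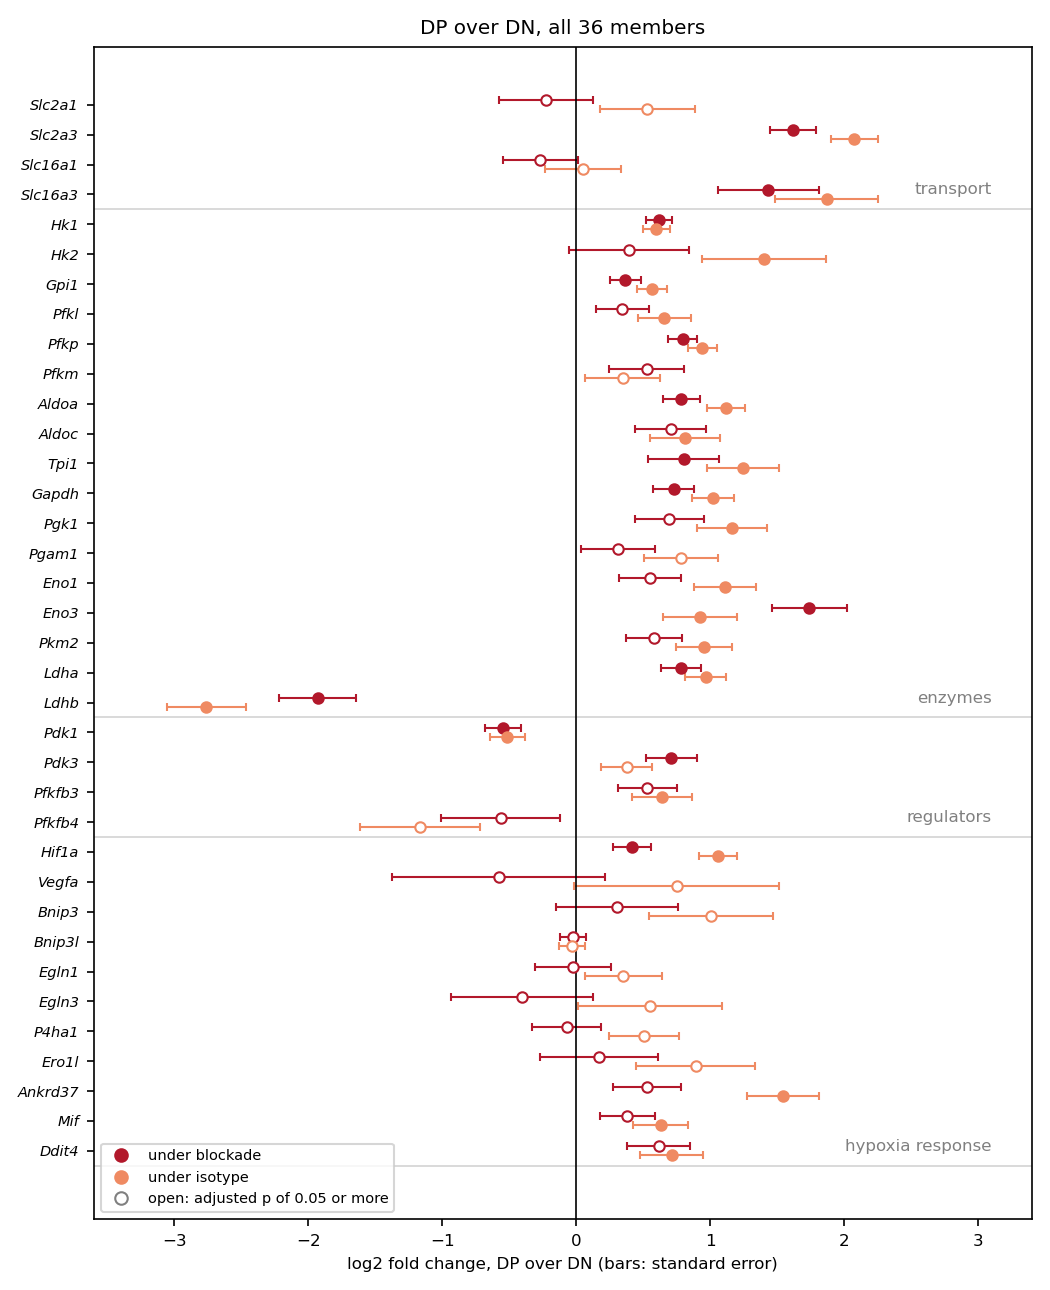
Log2 fold change of DP over DN cells (horizontal axis) for the 36 members under blockade (dark red) and under isotype (orange), with standard errors as bars and filled dots for adjusted p under 0.05. Enzyme dots lie right of 0 apart from Ldhb, at -1.93 under blockade and -2.76 under isotype, and Pdk1 lies left of 0 in both.

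Of these 23 calls, 16 passed in all 14 alternative analyses, which changed the normalisation, tool, filter, blocking or libraries. Hk2, Pfkl, Eno3 and Mif each lost the call without DP isotype 1, DP isotype 2, DN isotype 1 or DN isotype 2, with adjusted p up to 0.114, 0.0841, 0.0663 and 0.101. The log2 fold change of Mif was 0.40 without DN isotype 2. Aldoc lost it without DP isotype 1, DP isotype 3 or DN isotype 3 (up to 0.0975), Ddit4 without any DP isotype library or DN isotype 2 or 3 (up to 0.135), and Pfkfb3 without any DP isotype library or DN isotype 1 or 3 (up to 0.137). In a fit of only the groups compared Hk2, Aldoc, Eno3, Mif and Ddit4 lost theirs, while all genes called fell from 3794 to 3189. Ddit4 also lost its call with the title number as a block. With the log2 sum of the tumour and stroma markers as a covariate, an alternative added after seeing the data, 25 members were higher and 2 lower in DP isotype cells, the 23 calls among them, while 34.4% of all genes were called in either direction.

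Genes of the wider pathway went in both directions in DP isotype against DN isotype cells. Of 20 other genes of glucose metabolism tested, 2 rose and 4 fell. Dlat, of the pyruvate dehydrogenase complex, had a log2 fold change of 0.53 and Hk3 of 2.06. Adpgk, the ADP-dependent glucokinase, had -1.86, Pgam2 -4.76 and Pfkfb2 -0.95. Of 7 pentose phosphate genes 3 rose (Tkt 0.46, H6pd 0.91, Rpe 0.49). Of 9 genes of the HIF machinery 3 rose and 1 fell: Epas1, which encodes HIF-2α, had 3.55, the elongin B gene Tceb2 0.60, Rbx1 0.38 and the prolyl hydroxylase gene Egln2 -0.41. Of 24 further hypoxia targets 5 rose and 1 fell, with Bhlhe40 at 1.76, Higd1a at 0.73, Mxi1 at 1.49 and Kdm4b at -0.77. Beside the 15.0% higher and 14.8% lower of all genes, these counts in short lists are not read as a result about the lists. In DP blockade against DN blockade cells Tkt (0.70), Rpe (0.54), Epas1 (3.28), Tceb2 (0.67), Tceb1 (0.38), Bhlhe40 (1.01) and Higd1a (0.59) rose. There Adpgk (-1.40), Pgam2 (-3.81), Kdm4b (-0.67), Cited2 (-0.81) and Wsb1 (-0.33) fell. Of all genes 14.4% were higher and 12.5% lower in that comparison, so these calls are read the same way.

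Under blockade the DP cells again had more glycolytic RNA than the DN cells, with fewer members past the threshold. Of the 36 members 12 were called higher and 2 lower in DP blockade against DN blockade cells, while 14.4% of all 12710 genes were higher and 12.5% lower. The higher ones were 8 of 17 enzymes (Hk1, Gpi1, Pfkp, Aldoa, Tpi1, Gapdh, Eno3 and Ldha), Slc2a3, Slc16a3, Pdk3 and Hif1a, and the lower ones Ldhb and Pdk1. The median log2 fold change was 0.617 over the enzymes, 0.603 over the transporters and 0.169 over the hypoxia genes, against -0.0437 over all genes. This comparison shares no library with that under isotype. Beside it, 14 of 16 cycling genes were called higher (median 1.66). Of 18 myeloid markers 5 were higher and 2 lower (median 1.56), with sums of 368 to 785 CPM in DP blockade and 301 to 609 CPM in DN blockade libraries. Of 10 markers of plasmacytoid dendritic cells 8 were lower (median -6.13), with sums of 731.5 to 818 CPM in DP blockade and 1515 to 2303 CPM in DN blockade libraries, and all 11 tumour and stroma markers had a negative value (median -1.10). Their part was not tested.

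Slc2a3 again stood far apart, at 351, 295 and 270.5 CPM in DP blockade and 81.1, 90.5 and 127 CPM in DN blockade libraries (log2 fold change 1.62 ± 0.17, adjusted p = 4.13e-05). Slc16a3 had 134, 96.8 and 78.7 CPM in DP blockade and 36.7, 38.9 and 39.1 CPM in DN blockade libraries (1.43 ± 0.38, adjusted p = 0.0140). Eno3, the muscle type enolase, had 36.4, 41.7 and 47.1 CPM in DP blockade and 12.8, 14.9 and 9.79 CPM in DN blockade libraries (1.74 ± 0.28, adjusted p = 0.000689). The groups did not overlap in any of the 3 genes, and Eno3 had the largest positive fold change of the 17 enzymes in this comparison. Ldhb had 2.50, 5.27 and 4.26 CPM in DP blockade and 13.8, 15.6 and 16.5 CPM in DN blockade libraries (-1.93 ± 0.29, adjusted p = 0.000410). Pdk1 had 64.4, 59.8 and 73.5 CPM in DP blockade and 117, 91.9 and 80.3 CPM in DN blockade libraries (-0.55 ± 0.13, adjusted p = 0.00906). Both genes were lower in every DP than in every DN library, as under isotype.

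Of the 17 enzymes 16 had a positive value, with a median of 0.617 under blockade and 0.942 under isotype. Gapdh had 5802, 6090 and 5270 CPM in DP blockade and 3670, 2889 and 3805 CPM in DN blockade libraries (log2 fold change 0.73 ± 0.15, adjusted p = 0.00424). Ldha (0.78 ± 0.15), Pfkp (0.79 ± 0.11), Aldoa (0.78 ± 0.14), Hk1 (0.62 ± 0.10), Tpi1 (0.80 ± 0.27), Gpi1 (0.37 ± 0.11) and Pdk3 (0.71 ± 0.19) rose. Pkm2 (0.58 ± 0.21, adjusted p = 0.0547), Pgk1 (0.70 ± 0.26, adjusted p = 0.0629) and Eno1 (0.55 ± 0.23, adjusted p = 0.0950) missed the threshold. Hif1a had 643, 553 and 536 CPM in DP blockade and 360.2, 394 and 544 CPM in DN blockade libraries, where the third DN library lay within the DP range (0.42 ± 0.14, adjusted p = 0.0426). Ankrd37 (0.53 ± 0.26), Bnip3 (0.30 ± 0.46), Mif (0.38 ± 0.20) and Ddit4 (0.62 ± 0.23) did not pass.

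Of these 14 calls 9 passed in all 14 alternatives. Slc16a3 and Pdk3 lost theirs without DP blockade 1 (adjusted p = 0.0576 and 0.0524). Gpi1 lost its call without DP blockade 1 or 2 or DN blockade 2 or 3 (up to 0.105), Tpi1 without DP blockade 1 or 2 or any DN blockade library (up to 0.141), and Hif1a without DP blockade 1 or 2 or DN blockade 1 or 2 (up to 0.148). In a fit of only the groups compared Gpi1 and Hif1a lost theirs, and Hif1a also lost its call with the title number as a block. Without DP blockade 1 the count fell to 9 of the 36, while all genes called fell from 3428 to 2593. With the tumour and stroma sum as a covariate, 21 members were higher and 2 lower, 13 of the 14 calls among them, while 31.4% of all genes were called in either direction. Hif1a was the exception (adjusted p = 0.0604), the log2 fold change of Tpi1 was 1.22, while Hk2, Pfkl, Pgk1, Pgam1, Eno1, Pkm2, Bnip3, Ero1l, Mif and Ddit4 then passed.

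Within DN cells the blockade left no member past the threshold. Of 36 members 0 were called in DN blockade against DN isotype cells by edgeR's quasi-likelihood test, and DESeq2 called 2 (Slc2a3 and Hif1a). Over all genes edgeR called 1.12% of 12710 in either direction and DESeq2 4.26% of the 12704 with an adjusted p, so 2 of 36 is near that background. Fold changes still leaned upwards: 13 of 17 enzymes and 10 of 11 hypoxia genes had a positive value, with medians of 0.256 and 0.361, against -0.00718 over all genes. The tumour and stroma markers also leaned upwards, 9 of 11 being positive (median 0.798), with sums of 429 to 1586 CPM in DN blockade and 202 to 736 CPM in DN isotype libraries. Of 18 myeloid markers 12 were positive and 2 called higher (median 0.81), with sums of 301 to 609 CPM in DN blockade and 374 to 536 CPM in DN isotype libraries. The part of either in the members' values was not tested. Hif1a had 360.2, 394 and 544 CPM in DN blockade and 297, 291 and 288 CPM in DN isotype libraries (log2 fold change 0.57 ± 0.14, adjusted p = 0.0715). Ankrd37 had 18.4, 10.9 and 12.4 CPM in DN blockade and 5.62, 7.48 and 9.32 CPM in DN isotype libraries (0.89 ± 0.27, adjusted p = 0.139). Slc2a3 (0.55 ± 0.17, adjusted p = 0.154) and Ldhb (-0.68 ± 0.27, adjusted p = 0.239) did not pass either. Hif1a passed without DN blockade 1 (adjusted p = 0.0489) and Eno1 without DN isotype 3 (0.0466). In the further lists Bhlhe40, a hypoxia-inducible repressor gene, rose (0.90, adjusted p = 0.0415), and Bpgm, which diverts a glycolytic intermediate to 2,3-bisphosphoglycerate, fell (-1.26, adjusted p = 0.0249). Bpgm is abundant in red cells, and red cell markers summed to 0.253 to 120 CPM in DN blockade and 2712 to 5317 CPM in DN isotype libraries, which was not tested as a cause.

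Within DP cells the members lay close between treatments. Of 36 members 0 were called in DP blockade against DP isotype cells by edgeR, and DESeq2 called 0 of the 30 to which it gave an adjusted p. Eno3 had a log2 fold change of 0.62 ± 0.27 and did not pass. Over all genes edgeR called 0.0629% and DESeq2 0.836%. The median was 0.00594 over the enzymes and -0.131 over the hypoxia genes, against -0.0134 over all genes. Gapdh, for example, had 5802, 6090 and 5270 CPM in DP blockade and 6011, 5636 and 5231 CPM in DP isotype libraries. The interaction term, the blockade effect in DP minus that in DN cells, passed for 0 members and for 0% of all genes in edgeR. Its value was -0.64 ± 0.20 for Hif1a (adjusted p = 0.354) and -1.01 ± 0.37 for Ankrd37 (adjusted p = 0.466). DESeq2 called 0 of the 26 members with an adjusted p and 2.47% of all genes with one. The blockade comparisons share their isotype or blockade libraries with the DP over DN comparisons.

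Among the PD-1-negative subsets fewer members were called, as were fewer of all genes. The common coefficient of biological variation was 0.625 in these libraries and 0.229 in the DP and DN libraries, so the counts do not show that the members varied less. In effector-like against memory-like cells 0 of 35 members tested were called by edgeR, and DESeq2 called 1 (P4ha1). Over all genes edgeR called 1.90% of 12388 and DESeq2 4.25% of the 11618 with an adjusted p, so the 1 call is no more than that background. In effector-like against naive-like cells 4 members were higher and 1 lower, with 2.63% of all genes higher and 3.80% lower. In memory-like against naive-like cells 3 members were higher and 0 lower, with 2.85% of all genes higher and 2.57% lower. These comparisons share libraries with each other. Vegfa was not tested, being at or near 0 in most libraries.

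Other genes moved with these groups. Cycling genes summed to 419 to 712 CPM in effector-like, 724 to 1245 CPM in memory-like and 151 to 479 CPM in naive-like libraries. Of the 16, 5 were called higher in effector-like (median log2 fold change 1.77) and 6 in memory-like against naive-like cells (2.69). Against naive-like cells, memory-like cells had 5 of 10 plasmacytoid dendritic cell markers called higher (median 2.16), with sums of 653 to 2449 CPM in memory-like and 219.7 to 723 CPM in naive-like libraries. Counts of Rn45s, a ribosomal RNA gene, made up 10.7% to 14.1% of each effector-like library, 12.6% to 17.4% of each memory-like one and 17.8% to 20.7% of each naive-like one. Their part in the members' differences was not tested.

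Hif1a was higher in both effector-like and memory-like than in naive-like cells. It had 358, 317 and 359 CPM in effector-like libraries and 429, 487, 358, 451 and 542 CPM in memory-like libraries, against a lowest, median and highest value of 212, 231 and 292 CPM in naive-like libraries. All effector-like and memory-like libraries lay above all naive-like ones, with log2 fold changes of 0.53 ± 0.13 (adjusted p = 0.0202) and 0.92 ± 0.11 (adjusted p = 0.000366). The difference between effector-like and memory-like cells did not pass (-0.39 ± 0.14, adjusted p = 0.211). The memory-like call passed in all 20 alternatives, and the effector-like one was lost without effector-like 1 or 3 and without 1 and 2 together (adjusted p up to 0.196).

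Pfkp, the platelet type phosphofructokinase, was also higher in both. It had 324, 321 and 388 CPM in effector-like libraries and 293, 315, 247, 341 and 381 CPM in memory-like libraries, against 162, 208 and 295 CPM as lowest, median and highest in naive-like libraries. The log2 fold change was 0.66 ± 0.17 for effector-like (adjusted p = 0.0243) and 0.54 ± 0.15 for memory-like cells (adjusted p = 0.0422). Naive-like library 4, the highest of its group, reached into the memory-like range. Ldha rose in memory-like cells, with 1346, 1390, 1278, 1342 and 1285 CPM in memory-like libraries against 761, 953 and 1115 CPM as lowest, median and highest in naive-like libraries (0.47 ± 0.12, adjusted p = 0.0345). Its value in effector-like against naive-like cells was 0.23 ± 0.14 (adjusted p = 0.429), and the difference between effector-like and memory-like cells was -0.24 ± 0.15 (adjusted p = 0.603).

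**Figure D3:**
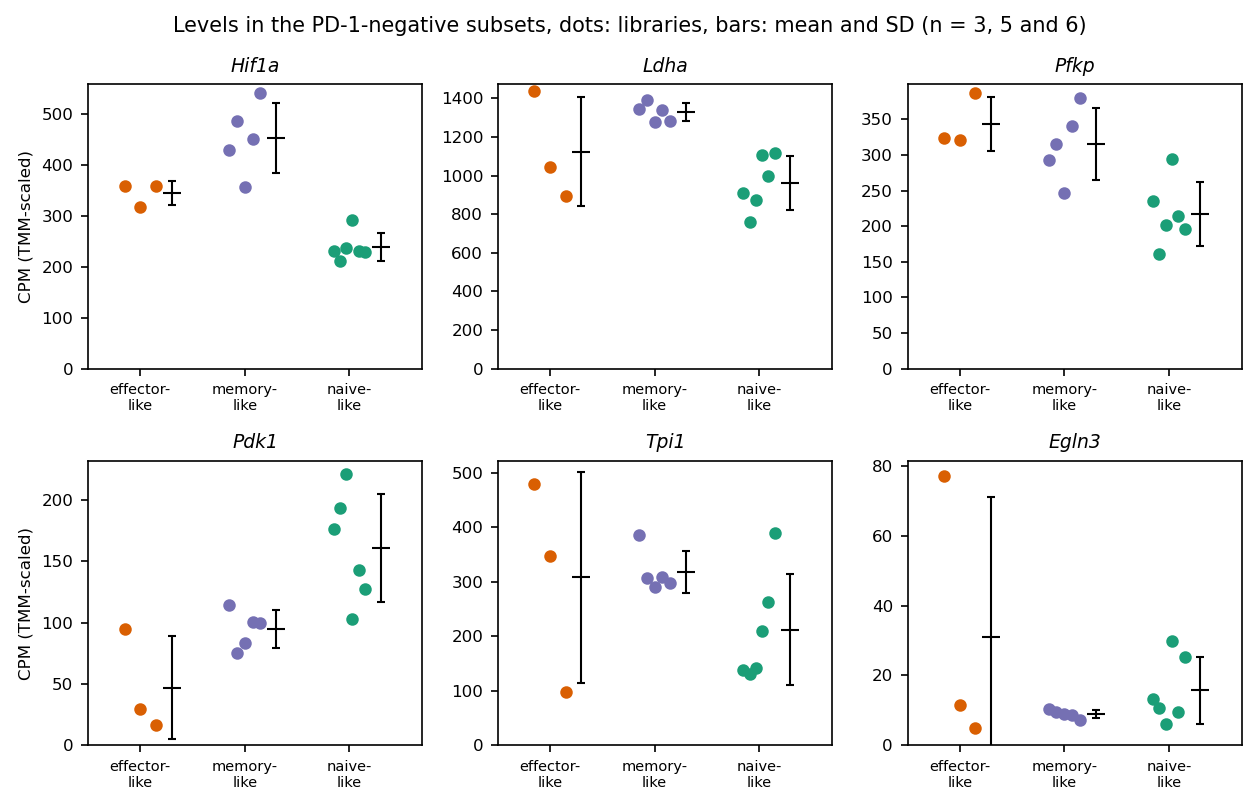
TMM-scaled CPM of 6 members (vertical axes) in effector-like, memory-like and naive-like libraries (dots), with the mean and SD as bars, which axes starting at 0 cut off below. Hif1a of every effector-like and memory-like library lies above 292 CPM, the highest naive-like value, while Tpi1 and Egln3 spread widest in effector-like libraries.

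Pdk1 fell in effector-like cells. It had 94.7, 29.1 and 16.4 CPM in effector-like libraries against 103, 159.9 and 221 CPM as lowest, median and highest in naive-like libraries (log2 fold change -1.78 ± 0.42, adjusted p = 0.0180). The groups did not overlap, but the effector-like libraries differed several-fold among themselves. Eno1 had 1589, 1184 and 811 CPM in effector-like libraries against 491, 583 and 820.1 CPM as lowest, median and highest in naive-like libraries (0.97 ± 0.20, adjusted p = 0.00647), with the same pattern in Ero1l. Ero1l had 275, 88.8 and 60.5 CPM in effector-like libraries against 28.2, 52.5 and 85.7 CPM as lowest, median and highest in naive-like libraries (1.39 ± 0.40, adjusted p = 0.0493). In both the lowest effector-like library lay inside the naive-like range. Slc2a3 was not called in effector-like (1.33 ± 0.49) or memory-like (1.19 ± 0.44) against naive-like cells, and naive-like library 4 held 3.76 CPM of it, against 24.8 to 69.1 CPM in the other naive-like libraries. Without naive-like 4 it passed in both (adjusted p = 0.0233 and 0.0318).

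None of the 5 effector-like calls passed in all 18 alternatives. Pfkp lost its call without any 1 effector-like library (adjusted p up to 0.124), Eno1 without effector-like 1 and Pdk1 without effector-like 2 or 3. The log2 fold change of Pdk1 was -2.82 without effector-like 1 and ranged from -3.29 to -1.39 over the alternatives, and that of Eno1 ranged from 0.42 to 1.17, the lowest without effector-like 1 and 2 together. Ero1l lost its call without effector-like 1 (adjusted p = 0.634) or without any 1 of naive-like 1 to 5, and its log2 fold change ranged from 0.17 to 1.74. In a fit of only the groups compared Pdk1 and Ero1l lost theirs, and Ero1l also lost its call with the title number as a block. With the tumour and stroma sum as a covariate Eno1 and Ero1l lost their calls and the other 3 members kept theirs. All genes called then numbered 557, against 797 in the main fit. Without effector-like 1 and 2 that group held 1 library, so the calls of that fit are not read as a result about the members. Of the memory-like calls, Pfkp was lost in 12 of 20 alternatives and Ldha in 10, with adjusted p up to 0.107 and 0.0755. Pfkp lost its call without memory-like 1, 2, 4 or 5 or any 1 naive-like library other than number 4, and Ldha without any 1 memory-like library or naive-like 1, 2, 3 or 5. Both also lost theirs without the filter on low counts, and Pfkp with the title number as a block. Counts also moved when naive-like 6 was left out, to 9 called in effector-like and 5 in memory-like against naive-like cells. All genes called rose with them, from 797 to 1068 and from 671 to 815. In the further lists Bhlhe40 rose in effector-like (2.23) and memory-like (1.20) against naive-like cells and in effector-like against memory-like cells (1.03), and Pdk2, another inhibitor kinase of pyruvate dehydrogenase, fell in effector-like (-2.81) and memory-like (-1.47) against naive-like cells. Epas1 (3.30), Tceb2 (0.67) and Rbx1 (0.65) rose in effector-like against naive-like cells. Arnt (-0.72) and Wsb1 (-0.65) fell in memory-like against naive-like cells, and Mxi1 (2.35) rose in effector-like against memory-like cells.

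Many members followed the tumour and stroma markers from library to library. In effector-like libraries 22 of 35 members (62.9%) had the order of that sum across the 3 libraries, against 18.3% of all genes tested. The share was 47.2% in DN blockade (all genes 19.2%), 52.8% in DN isotype (21.8%), 33.3% in DP isotype (17.8%) and 8.33% in DP blockade libraries (16.5%). Tpi1 showed the order in the effector-like group: 479, 347 and 97.6 CPM in libraries with 838, 540.2 and 30.03 CPM of the markers. Egln3 had 77.2, 11.4 and 4.81 CPM in the same libraries. In DN isotype libraries 1, 2 and 3 the markers summed to 645, 202 and 736 CPM, Tpi1 stood at 399, 208 and 527 CPM, and Egln3 at 28, 7.48 and 38.5 CPM. Library 2 was thus the lowest of its group in markers and in both genes.

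With the log2 marker sum in the fit, 14 members had a slope past the threshold in the DP and DN libraries: Slc2a1, Slc16a1, Hk2, Tpi1, Gapdh, Pgam1, Eno1, Pkm2, Bnip3, Egln3, P4ha1, Ero1l and Mif upwards, and Pfkfb3 downwards. Of all 12710 genes 523 had such a slope upwards and 173 downwards. Of the slopes past the threshold Egln3 had the steepest, a log2 change of 0.96 per doubling of the marker sum (adjusted p = 0.0115), followed by Hk2 with 0.79 (adjusted p = 0.0173) and Bnip3 with 0.75 (adjusted p = 0.0266). Slc2a3, Hif1a and Ldhb had no slope past the threshold. In the PD-1-negative libraries Hk2, Tpi1, Gapdh, Pgk1, Pgam1, Pkm2, Bnip3 and Mif had one, all upwards, against 304 genes upwards and 38 downwards of 12388. The part of tumour or stroma RNA in these levels was not tested.

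**Figure D4:**
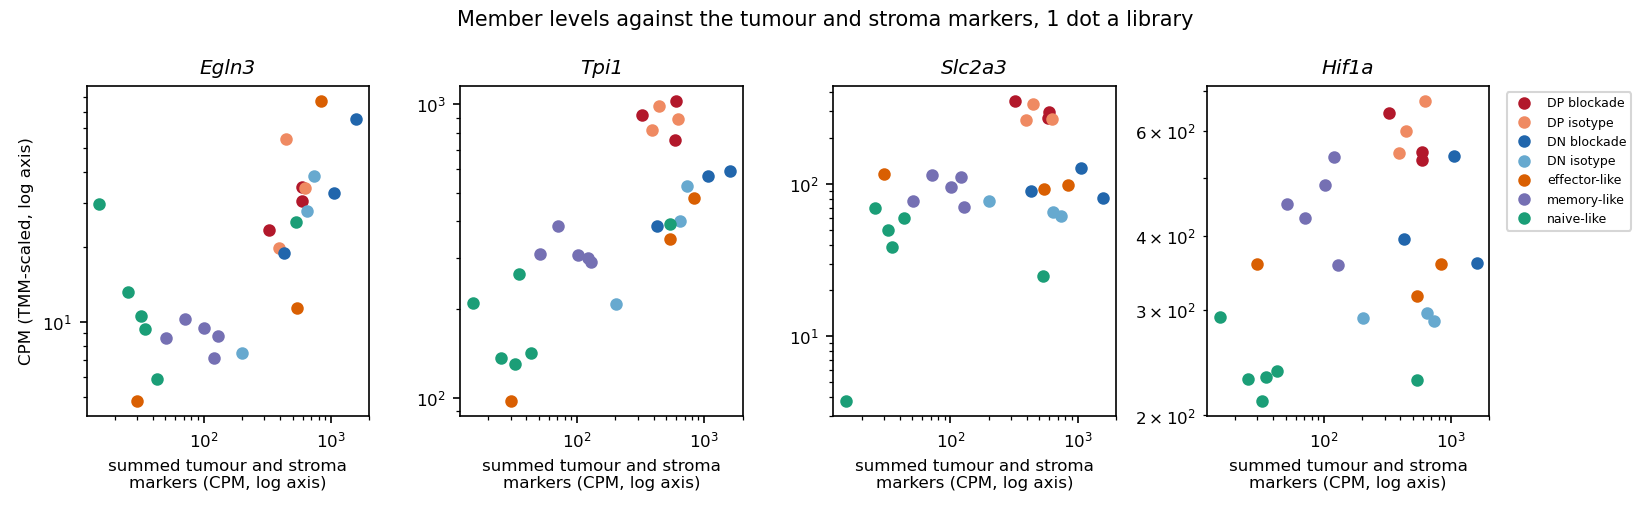
TMM-scaled CPM of 4 members (vertical log axes) against the summed tumour and stroma markers (horizontal log axes), 1 dot for each of the 26 bulk libraries, coloured by group. Egln3 and Tpi1 climb with the markers within the DN and effector-like groups, while Slc2a3 and Hif1a of DP libraries stand high at marker sums that DN libraries also reach.

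The single-cell libraries add which cells held the RNA. They kept 2502 blockade and 2950 isotype DN cells, with medians of 3839.5 and 3652 UMIs (unique molecules) per cell and totals of 12399243 and 12390885 UMIs. The libraries were told apart by the barcode suffix, matched to the library numbers in the labels, which no file states outright, and 7 barcodes occur with both suffixes. With 1 library for each treatment there is no test. Intervals are exact 95% Poisson intervals for counting error only, and a member was named as different when the libraries differed at least 1.5-fold with intervals apart. Myeloid markers summed to 1421 CPM of UMIs in blockade and 382 CPM in isotype, tumour and stroma markers to 439 CPM in blockade and 313 CPM in isotype. Red cell markers summed to 144 CPM in blockade and 8.88 CPM in isotype, the opposite direction to the bulk DN libraries. Markers of plasmacytoid dendritic cells (635 CPM in blockade, 314 CPM in isotype) and Ly49 receptor genes (457.5 CPM in blockade, 268 CPM in isotype) also went against bulk, where the medians of DN blockade against DN isotype were -0.797 and -1.14. Effector genes (13710.0 CPM in blockade, 7204 CPM in isotype) and naive genes (971 CPM in blockade, 1462 CPM in isotype) went as in bulk, where the medians were 0.757 and -0.759. Every blockade over isotype ratio in single cells rests on the suffix match, and would change sign if the suffixes were exchanged.

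By that rule 20 members were higher and 1 lower in blockade than in isotype cells, while 14.4% of 11396 genes were higher and 2.82% lower. The higher ones were 10 of 17 enzymes, 3 of 4 transporters, 1 of 4 regulators and 6 of 11 hypoxia genes. The median log2 ratio was 0.687 over the enzymes, 0.938 over the transporters, 0.014 over the regulators and 0.611 over the hypoxia genes, against 0.169 over all genes. Slc16a3 had the largest ratio, with 42.5 CPM (527 UMIs; interval up to 46.3) in blockade and 7.91 CPM (98 UMIs; up to 9.64) in isotype cells, a log2 ratio of 2.43. Hif1a had 129 CPM (1593 UMIs) in blockade and 55.4 CPM (687 UMIs) in isotype cells, a log2 ratio of 1.21. Aldoa had 1164 and 496 CPM, Tpi1 388 and 163 CPM, Gapdh 1945 and 1127 CPM and Ldha 1041 and 646 CPM in blockade and isotype cells. Aldoc (2.21), Bnip3 (2.20), Vegfa (2.06), Pfkfb3 (1.24), Slc2a1 (1.10) and Ankrd37 (0.84) were also past the rule. Pdk1 was the lower one, with 42.5 CPM in blockade and 65.7 CPM in isotype cells. Ldhb (0.19), Pgk1 (0.30), Egln3 (0.48), Mif (0.37) and Ddit4 (-0.23) were not past it.

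With the total counted without ribosomal protein and mitochondrial genes all log2 ratios moved by -0.23, and 12 members were past the rule upwards and 1 downwards, while 9.22% of 11396 genes were past it upwards and 7.11% downwards. Those upwards were Slc2a1, Slc16a3, Hk2, Pfkp, Aldoa, Aldoc, Tpi1, Pfkfb3, Hif1a, Vegfa, Bnip3 and Ankrd37. In cells with a T cell UMI and none of the defining myeloid, B cell or tumour genes, 2073 in blockade and 2690 in isotype, 19 members were past it upwards and 1 downwards, while 9.65% of 10174 genes were past it upwards and 3.20% downwards. There Slc16a3 had a log2 ratio of 2.52, Bnip3 of 2.71, Hif1a of 1.36 and Pdk1 of -0.75.

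A small number of cells of other types held a large part of the RNA of several members. Cells were clustered without the 36 members, which gave 14 clusters. A tumour or stroma-like cluster led by Krt8, Lgals7 and Krt18 (28 blockade and 31 isotype cells, median 28858 UMIs per cell) and a myeloid-like cluster led by Lyz2 and the C1q genes (42 and 2 cells) together held 103 of 5452 cells, and 15.7% of all UMIs in blockade and 7.6% in isotype. Those 103 cells held 40.1% of the Gapdh UMIs in blockade and 38.4% in isotype, 41.7% of those of Tpi1 in blockade and 49.7% in isotype, and 61.2% of those of Hk2 in blockade and 55.1% in isotype. Of the hypoxia genes, the share for Vegfa was 89.1% of 46 UMIs in blockade and 100% of 11 UMIs in isotype. It was 73.6% in blockade and 80.3% in isotype for Egln3, 57.2% in blockade and 66.2% in isotype for Bnip3, and 49.6% in blockade and 61.8% in isotype for Ero1l. The share for Hif1a was 13.4% in blockade and 10.6% in isotype, and that for Pfkp 9.5% in blockade and 4.6% in isotype. For Slc2a3 it was 4.2% of 265 UMIs in blockade and 0 of 155 UMIs in isotype, and for Ldhb 11.2% in blockade and 1.3% in isotype. Egln3, Hk2 and Bnip3, with high shares here, had the 3 steepest slopes on the tumour and stroma sum among the members past the threshold in the bulk DP and DN libraries. The slope of Vegfa, 0.89, was steeper than those of Hk2 and Bnip3 but did not pass (adjusted p = 0.27). Slc16a3 had a share of 54.8% in blockade and 52.0% in isotype, and its slope of 0.287 did not pass either (adjusted p = 0.433). For Slc2a1 the share was 47.3% in blockade and 50.5% in isotype, and its slope of 0.59 passed (adjusted p = 0.0175).

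Among the other clusters the enzymes also differed. The 17 enzymes summed to 15460 CPM in the tumour or stroma-like and 14940 CPM in the myeloid-like cluster. Cluster 1, led by haemoglobin genes, Cxcr6 and Il2 and with 581 blockade and 108 isotype cells, had 9036 CPM, the cycling-like cluster 10 (92 and 106 cells) 7516 CPM, and the interferon-like cluster 0 (239 and 57 cells) 5793 CPM. The effector-like cluster 4, led by Gzma and Klrg1, had 4192 CPM and the Ly49-like cluster 6 had 3801 CPM. Cluster 2, led by Dapl1, Ramp1 and Ccr9 with Lef1 among its leading genes (26 and 894 cells), had 2435 CPM, the lowest. Shares of cells in these clusters differ between the libraries, so these sums describe the pooled cells of each cluster.

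**Figure D5:**
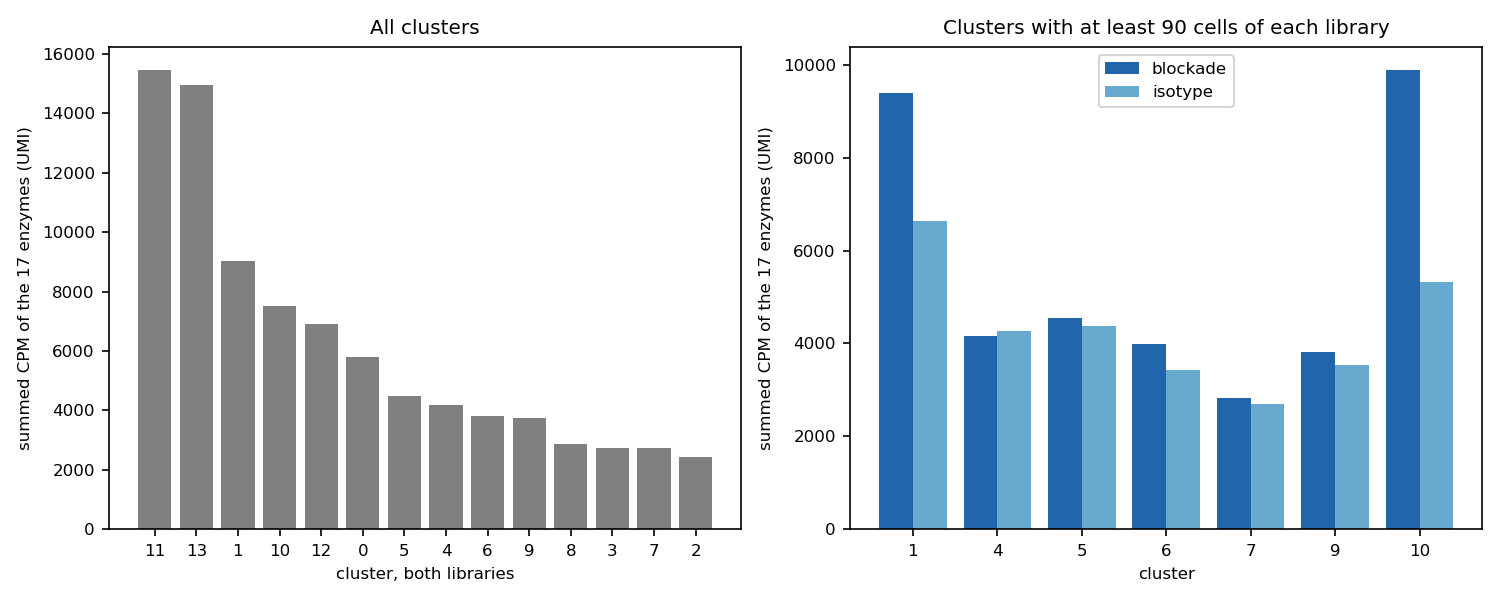
Summed CPM of the 17 glycolytic enzymes (vertical axes, UMI counts) by cluster: left, all 14 clusters over both libraries; right, blockade (left bar) and isotype (right bar) in the clusters with at least 90 cells of each. Clusters 11 and 13 reach 15460 and 14940 CPM, and blockade stands highest above isotype in cluster 10, with 9893 and 5328 CPM.

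The median log2 ratio over the enzymes, 0.687 in the whole libraries, was lower in clusters 1, 4, 5, 6, 7 and 9 and higher in cluster 10. The enzymes summed to 9893 CPM in blockade and 5328 CPM in isotype cells of the cycling-like cluster 10, with a median log2 ratio of 0.783 over 14 enzymes, against 0.119 over all genes there. In the same cluster Slc16a3 had a log2 ratio of 3.26, Hif1a of 1.68, Aldoa of 1.61 and Tpi1 of 1.5. Slc16a1 (-0.26), Pdk1 (-0.285), Pdk3 (-0.353) and Mif (-0.023) lay below 0 there. The 4 transporters together had 74.35 CPM of 793568 UMIs in its isotype cells, so the Slc16a3 ratio rests on few UMIs. Hif1a had log2 ratios from -0.18 in cluster 9 to 0.48 in cluster 6 in the other clusters compared. In cluster 1 the enzymes summed to 9400 CPM in blockade and 6645 CPM in isotype cells, a median log2 ratio of 0.452 against -0.075 over all genes. In clusters 4, 5, 6, 7 and 9 the median log2 ratio over the enzymes lay between -0.008 and 0.164 and that over all genes between 0.020 and 0.078. Cluster 4, for example, had 4152 CPM of the enzymes in blockade and 4270.0 CPM in isotype cells. Pdk1, lower in blockade over the whole libraries, had log2 ratios of -0.576 in cluster 5, -0.427 in 6, -0.007 in 7 and 0.003 in 9. In cluster 1 it had 1.354, where the 4 regulators together had 43.07 CPM of 394714 UMIs in isotype cells. These values rest on 1 library for each treatment and have no replicate check.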

How the data were processed

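For the bulk libraries, made with an adapted SMART-Seq2 protocol, the deposited expected counts per gene came from TopHat and RSEM on mm9, with DESeq also named, per the submitters' processing notes. Of the deposited values, 22.6% for the PD-1-negative subsets and 30.5% for the DP and DN libraries were not whole, so they were rounded. The authors' normalised values, a signal with no stated unit, were used only to set levels between genes: the ratio of deposited count to signal followed transcript length (Spearman 0.857 and 0.860 over 4427 and 6278 genes), so that signal is per length. The single-cell table holds UMI counts from Cell Ranger 1.3 on mm10 (10x 3′ v2), per the submitters' processing notes. The authors' scaled single-cell table was not used here.

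Genes were filtered with filterByExpr, scaled by TMM and tested with edgeR 4.0.16 (R 4.3.3, limma 3.58.1) by quasi-likelihood, all libraries of a table in 1 fit (14 and 12), with Benjamini-Hochberg adjustment over all 12388 and 12710 genes tested and a threshold of 0.05. SE is the log2 fold change over the square root of F. The biological coefficient of variation was 0.625 in the subset and 0.229 in the DP and DN table. DESeq2 1.42.0 was an alternative, and the scripts were tested on simulated counts. Repeated gene names left out of the subset counts filled 4 rows. Single cells with under 500 genes or over 10% mitochondrial UMIs were removed, which left 2502 of 2508 blockade and 2950 of 2963 isotype cells, doublets were neither called nor removed, and cells were clustered with scanpy 1.11.5 (2000 variable genes, 30 components, 15 neighbours, Leiden resolution 1.0). Clusters were named only where at least 3 of their 10 leading genes were in a marker list. Rn45s, a ribosomal RNA gene, held 10.7% to 20.7% of the bulk counts.

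The members, the lists and the libraries left out were chosen with earlier results of these data known. All 36 members are named. Of the further lists up to 3 called genes each way with the smallest p are named. Same-numbered DN blockade and DN isotype libraries deviated together (correlations of 0.122, 0.383 and 0.184 by title number). These DN libraries may be paired, but no label says so, and DN blockade 1 did not correlate best with DN isotype 1. Fitting the title number as a block called 0 members, as without it.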

Additional observations from a re-analysis of the deposited data

Results flagged for a closer look

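In 12 of 72 groups of 5 or 6 libraries tested, 1 library of the PD-1-negative subsets stood apart from the others of its group in a member's CPM by Dixon's criterion at the 95% level, which chance meets in about 1 of 20. Naive-like library 6 was high in Hk2 (40.8 CPM, the others 3.28 to 13.1), Pgk1 (533, the others 232 to 313) and Pkm2 (1254, the others 572 to 796). Its tumour and stroma markers summed to 536 CPM, against 15.2 to 43.1 CPM in the other naive-like libraries. Naive-like library 4 was high in Hif1a (292, the others 212 to 238) and Aldoc (12.4, the others 0 to 2.30), naive-like library 2 was low in Pfkm (0.896, the others 6.88 to 9.98) and naive-like library 3 high in Pfkfb4 (12.0, the others 4.73 to 6.70).

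Memory-like library 2 was high in Pfkfb4 (56.7, the others 0.152 to 8.27), Pgam1 (453, the others 306 to 335) and Bnip3l (223, the others 138 to 162). Its myeloid markers summed to 1356 CPM, against 163 to 482 CPM in the other memory-like libraries. Memory-like library 1 was high in Tpi1 (385, the others 291 to 309.7) and low in Pfkl (50.8, the others 69.6 to 77.2). The part of other cells in these values was not tested.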

How the results depend on the processing

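No called member changed direction in any alternative. Of the single-member values in bulk, 4363 kept their side of the threshold, 99 lost a call and 87 gained one; a change of sign in an uncalled value was counted as no change. For single cells 74 values stayed and 33 moved. The count of members called in DP isotype against DN isotype cells (23) ranged from 16 to 27 over all alternatives, and from 16 to 25 over single libraries left out. All genes called were 3794 in the main fit, 2881 where the count was 16 and 4369 where it was 27. DP blockade against DN blockade (14) gave 23 with the tumour and stroma covariate, chosen after seeing the data, and 9 to 15 over libraries left out. All genes called were 3428 in the main fit, 3992 with that covariate and 2593 where the count was 9. Effector-like against naive-like (5) gave 3 with that covariate, 3 with only the groups compared, 8 without naive-like 4 and 6 and memory-like 2, libraries that stood apart, and 1 to 9 over single libraries left out. The fit without effector-like 1 and 2 left 1 library in that group, so its counts are not given. Memory-like against naive-like (3) gave 7 without those 3 libraries, 7 with DESeq2, 1 without the filter on low counts, 5 with only the groups compared and 1 to 5 over libraries left out. All genes called there went from 671 to 828, 1204, 564 and 602 in the first 4 of these settings. In effector-like against naive-like cells they went from 797 to 557 with the covariate, 632 with only the groups compared and 1319 without the 3 libraries. Effector-like against memory-like (0) gave 1 with DESeq2 (P4ha1), 1 with the covariate (Mif) and 0 to 1 over single libraries left out. DN blockade against DN isotype (0) gave 2 with DESeq2, 1 without the filter (Hif1a) and 0 to 1 over libraries left out. DP blockade against DP isotype and the interaction gave 0 throughout. The 21 single-cell members past the rule became 13 when ribosomal protein and mitochondrial genes were left out of the total. The causes were not tested.

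A replicate block by title number gave 5 called members in memory-like and 4 in effector-like against naive-like cells, 23 in DP isotype against DN isotype, 13 in DP blockade against DN blockade and 0 in the other comparisons. All genes called with that block were 503 in the memory-like, 584 in the effector-like, 3547 in the isotype and 3134 in the blockade comparison. A block by the number in the library names gave 26 and 20 in the 2 DP over DN comparisons, with 3855 and 3417 of all genes. That number is nested in treatment, so the effects of blockade alone could not be fitted with it. A comparison was taken as possibly paired where every pair's correlation was over 0.1, which held for the title numbers of the DN treatments alone. That rule rests on the data and not on a label. By library name, DP blockade and DN blockade gave 0.152, 0.082 and 0.061, with each library correlating best with its own number. DP isotype and DN isotype gave -0.006, 0.326 and 0.268 for numbers 1, 3 and 2, and number 1 did not correlate best with its own. Both are a hint from the data and not the design.

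Depth limits Vegfa, Ldhb in DP cells, Pfkm and Pfkfb4, which had few counts. Single cells have 1 library for each treatment. Marker lists show that other cells were present but not what share of a member's RNA in bulk came from them.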
